A study of Mus musculus with 7 samples.

Results

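Tamoxifen was compared with vehicle in epithelial cells isolated from the mouse endometrium, the lining of the uterus. The comparison uses 3 of the 7 RNA-seq libraries of the series, 2 from tamoxifen-treated mice and 1 labelled as vehicle, and covers all 24353 genes of the deposited table. Every mouse was a C57BL/6 female whose ovaries had been removed at 6 to 7 weeks of age, so the treated and the vehicle mice alike lacked ovarian hormones. Tamoxifen was given under the skin in peanut oil at 0.5 mg per day for 28 days. Of 18 mice, 6 were randomized to each of the vehicle, tamoxifen, and tamoxifen plus alpelisib arms. The sources used here do not say whether the single vehicle library holds 1 mouse or a pool, and each tamoxifen library is 1 mouse by its label. A further 2 mice carried a pellet with 0.01 mg of estradiol, made to release over 60 days, for 28 days, and the values of their 2 libraries are given beside those of tamoxifen. The estradiol libraries and both libraries with tamoxifen plus alpelisib at 30 mg/kg per day also enter the estimate of the spread behind each call, and the latter are not described.

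Tamoxifen binds the estrogen receptor alpha, the product of Esr1, and the receptor then takes up a shape that recruits corepressors in breast tissue but still activates part of its targets in the uterus. In the endometrium, estradiol drives the epithelium to divide and to secrete proteins such as lactoferrin and complement C3 into the lumen. Progesterone, which acts through Pgr, restrains that division and prepares the epithelium for implantation. The PI3K pathway, named in the title of the series, carries signals from receptors such as those of insulin and insulin-like growth factor to AKT, mTOR and the FOXO factors.

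Values are fragment counts divided by transcript length and library size (FPKM). The sum of FPKM over all genes was 383379 in the vehicle library and 320527 and 403562 in the tamoxifen libraries. The smallest values of genes with 1 annotated transcript, taken as 1 fragment each, put the depth near 18.84 M (mega) fragments for vehicle, 17.99 and 16.79 M for tamoxifen 1 and 2, and 17.18 M for estradiol 1, while the values of estradiol 2 gave no usable estimate. Ribosomal RNA precursor Rn45s stood at 240.3 with vehicle, 530.4 and 229.6 with tamoxifen, and 764 and 2276 with estradiol. The epithelial markers Epcam, at 206 with vehicle, 226 and 289 with tamoxifen and 234 and 202 with estradiol, and Krt8, at 2295 with vehicle, 1076 and 1297 with tamoxifen and 839 and 769 with estradiol, were present in all of these libraries.

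A gene was tested where it reached an FPKM of 1 in at least 1 library, which left 12314 genes. Calls come from limma on log2(FPKM + 1) with an adjusted p under 0.05, and log2 fold changes are given ± SE. As the pseudocount of 1 shrinks the change of low genes, their log2 fold changes are understated. Vehicle has 1 library, so the SE rests on the spread within the other groups and assumes that vehicle varies like them. By this test 1838 genes (14.9% of those tested) rose and 2969 (24.1%) fell with tamoxifen, 4807 (39%) together, of which 2746 differed by at least 2-fold. Counts for each gene list below are to be read beside these shares. A count that takes no spread from other groups found 321 genes (2.61%) at least 4-fold above vehicle in both tamoxifen libraries and 321 (2.61%) at least 4-fold below. The median log2 fold change of all tested genes was -0.12, and with median-of-ratios scaling it was 0.02, with 2497 genes higher and 2525 lower. Quantile normalization gave 2271 higher and 2572 lower, so the excess of lower genes depends on the scaling. Both tamoxifen libraries lay above vehicle for 4542 genes (36.9%) and below it for 6188 (50.3%).

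The median absolute log2 difference between tamoxifen 1 and tamoxifen 2 was 0.188 over the tested genes, against a median absolute log2 fold change of 0.523 from vehicle. Between the 2 tamoxifen libraries, 232 genes (1.88%) lay over 2-fold apart. The same median difference was 0.250 between the estradiol libraries and 0.0996 between those with tamoxifen plus alpelisib. The SE thus pools groups of unlike spread.

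**Figure D1:**
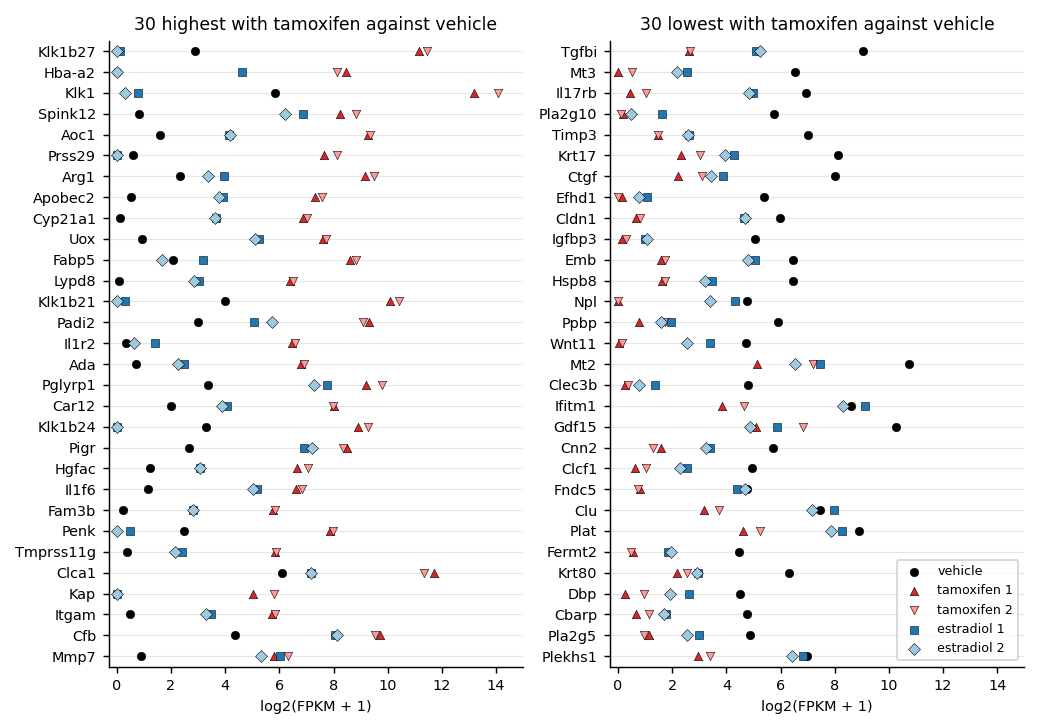
Level of the 30 highest and 30 lowest genes, on log2(FPKM + 1), 1 symbol per library: vehicle (black), tamoxifen 1 and 2 (red) and estradiol 1 and 2 (blue). These genes were ranked by their distance from vehicle. The tamoxifen symbols lie less than 2-fold apart except for Mt2 and Gdf15, while the estradiol symbols lie near tamoxifen for some genes, such as Mmp7, and near or below vehicle for others, such as Klk1 and Klk1b27.

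Several secreted serine proteases and protease inhibitors were among the largest increases. Klk1, tissue kallikrein, a protease that releases kinins from kininogen, stood at 57 with vehicle, 9358 and 17316 with tamoxifen and 0.736 and 0.235 with estradiol. Its tamoxifen values were the highest of any gene in those libraries, and its estradiol values were below vehicle. The log2 fold change against vehicle was 7.78 ± 0.42 by limma (adjusted p = 0.000108). Klk1b27, a kallikrein of the same mouse gene cluster, stood at 6.47 with vehicle, 2285 and 2814 with tamoxifen and 0.0816 and 0 with estradiol (log2 fold change 8.41 ± 0.21, adjusted p = 1.89e-05 by limma). Klk1b21 at 15.1 with vehicle and 1089 and 1377 with tamoxifen and Klk1b24 at 8.73 with vehicle and 475 and 611 with tamoxifen rose as well, and Klk1b24 was listed at 0 in both estradiol libraries. Of its windows of 50 bases, the annotated transcript of Klk1 shares 3.65% with Klk1b27, 6.41% with Klk1b21 and 6.3% with Klk1b24. Klk1b27 shares 10.4% with Klk1b24, and Klk1b21 shares 20.6% with Klk1b24. Reads within those stretches cannot be told apart by sequence, and other Klk1b genes were not compared. By these shares the single Klk1b levels are less certain than that of Klk1.

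Prss29, an implantation serine proteinase of the uterine glands, went from 0.512 in vehicle to 198 and 277 with tamoxifen and was listed at 0 in both estradiol libraries. Its neighbour in function Prss28 stayed low, at 0 with vehicle and 0.106 and 0.534 with tamoxifen. Spink12, a Kazal-type protease inhibitor, rose from 0.757 to 303 and 449, and it was also high with estradiol, at 116 and 72.8. Membrane-bound serine proteases rose too, among them Tmprss11d (5.03), Tmprss4 (4.50) and Tmprss6 (3.13), where the bracketed values are log2 fold changes. Tmprss11a, listed at 0 in vehicle, stood at 16 and 12.4 with tamoxifen. Of the 22 tested members of this list, 14 rose and 2 fell, against 14.9% and 24.1% of all tested genes, with a median log2 fold change of 2.17 against -0.12. Its members were chosen with earlier results of these data known, so the counts describe these members and do not test the family. The members that fell were Wfdc2 (-2.02) and Serping1 (-1.66), a whey acidic protein and the C1 inhibitor. Against estradiol 14 of the 22 were higher with tamoxifen and 1 was lower, where 1519 of all tested genes (12.3%) were higher and 4458 (36.2%) lower, 5977 (48.5%) together. That split of all genes became 2950 higher and 2684 lower with median-of-ratios scaling and 2523 and 2756 with quantile normalization, so counts against estradiol are to be read with it.

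Sequences just upstream of the start sites of 3 secreted genes are shown because Klk1 and Klk1b27 were above vehicle with tamoxifen and below it with estradiol, whereas Ltf, lactoferrin, was high with tamoxifen and with estradiol. Each run is the 250 bases before the RefSeq start site (GRCm38.p6), and capitals mark GGTCA or its reverse complement, the letters of 1 arm of an estrogen response element. The windows lie at chr9:111019042-111019291 for Ltf, chr7:44225110-44225359 for Klk1 and chr7:44052040-44052289 for Klk1b27, all on the plus strand.
Ltf: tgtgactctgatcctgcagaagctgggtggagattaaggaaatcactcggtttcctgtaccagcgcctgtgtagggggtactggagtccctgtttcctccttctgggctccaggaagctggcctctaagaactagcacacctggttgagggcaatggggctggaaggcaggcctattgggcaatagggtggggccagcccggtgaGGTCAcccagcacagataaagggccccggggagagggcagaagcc
Klk1: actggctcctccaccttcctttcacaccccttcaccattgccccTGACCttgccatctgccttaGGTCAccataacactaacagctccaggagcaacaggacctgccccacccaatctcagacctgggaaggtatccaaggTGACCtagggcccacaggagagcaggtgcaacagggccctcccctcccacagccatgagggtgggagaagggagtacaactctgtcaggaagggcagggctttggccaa
Klk1b27: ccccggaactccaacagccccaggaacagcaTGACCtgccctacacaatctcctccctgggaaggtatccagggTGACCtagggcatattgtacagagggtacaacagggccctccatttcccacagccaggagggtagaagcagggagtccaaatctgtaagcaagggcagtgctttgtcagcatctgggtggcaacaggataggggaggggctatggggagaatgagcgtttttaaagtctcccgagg
The Ltf window held 1 match, that of Klk1 3 and that of Klk1b27 2. Those letters are common: 35.2% of 32851 promoter windows of this length hold them on either strand. Counted by gene, with any annotated start, they were found for 37.6% of the 9660 tested genes that have a window, for 11 of 21 among the 30 highest genes (52.4%) and for 5 of 23 among the 30 lowest (21.7%). The full palindrome GGTCANNNTGACC was in 21 of all windows (0.0639%) and was found for 0 of those 21 genes. Klk1 and Klk1b27 are both among the 30 highest and belong to 1 gene cluster, so the genes counted there are not independent. A match is a description of letters, and no binding was measured here.

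Secreted defense proteins formed the other abundant group. Ltf, an iron-binding antimicrobial protein and a textbook estrogen target of the mouse uterus, stood at 83.1 with vehicle, 2556 and 2539 with tamoxifen and 1520.1 and 1324 with estradiol (log2 fold change 4.92 ± 0.30, adjusted p = 0.000148 by limma). Lcn2, which sequesters bacterial siderophores, stood at 229 with vehicle, 5312 and 8249.7 with tamoxifen and 927 and 652 with estradiol. C3, the central complement component, stood at 89.4 with vehicle, 2891 and 2191 with tamoxifen and 448 and 652 with estradiol. For these 3 genes the tamoxifen values lay above those of estradiol, which in turn lay above vehicle. Pigr, the receptor that carries IgA across the epithelium, rose from 5.41 to 358 and 321, and Cfb, complement factor B, from 19.5 in vehicle to 831 and 731. Clu, the complement inhibitor clusterin, moved the other way, at 175 with vehicle, 8.1 and 12.2 with tamoxifen and 252 and 141 with estradiol. Its log2 fold change was -4.00 ± 0.38 against vehicle by limma (adjusted p = 0.00065), and both tamoxifen libraries lay below all of the others shown. The complement proteases fell as well, C1ra (-1.59) and C1s1 (-1.83). Of the 22 tested members 11 rose and 4 fell, with a median of 0.996.

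Genes that estradiol is known to regulate in the uterine epithelium did not move as 1 block. Of 35 tested, 17 rose and 9 fell with tamoxifen, with a median log2 fold change of 1.10, and the values of estradiol placed them in several patterns. Muc1, the main membrane mucin of the lumen, stood at 12 with vehicle, 106 and 122 with tamoxifen and 105 and 83.1 with estradiol, so tamoxifen and estradiol reached similar levels. Greb1, an early estrogen receptor target, stood at 11.1 with vehicle, 30.7 and 36.5 with tamoxifen and 11.6 and 16.1 with estradiol, and its log2 fold change was 1.51 ± 0.23 (adjusted p = 0.00374 by limma). It was higher with tamoxifen than with either estradiol library. Pgr, the progesterone receptor, stood at 15.2 with vehicle, 15.3 and 14.9 with tamoxifen and 37.2 and 39.4 with estradiol. Tamoxifen and vehicle overlapped for Pgr, while both estradiol libraries lay above them. Padi2, an arginine deiminase, stood at 6.96 with vehicle, 640.0 and 544 with tamoxifen and 32.4 and 51.5 with estradiol, and its relative Padi4 at 4.08 with vehicle, 91.9 and 121 with tamoxifen and 41.6 and 40.4 with estradiol. Padi1 rose with tamoxifen from 92.3 in vehicle to 678 and 771, whereas its estradiol values of 75.9 and 72.6 were below vehicle. Aqp5, a water channel, followed the same order, at 24.3 with vehicle, 90.9 and 122 with tamoxifen and 7.83 and 5.42 with estradiol. Wnt7a, a luminal Wnt ligand, fell to 3.48 and 4.77 from 29.9 and stood at 45.2 and 37.3 with estradiol. Stc1, stanniocalcin, and Fgf18, a fibroblast growth factor, also fell, with log2 fold changes of -2.52 and -2.08.

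Esr1, the receptor that tamoxifen binds, stood at 30.00 with vehicle, 22.4 and 20.6 with tamoxifen and 31.5 and 53.5 with estradiol, with a log2 fold change of -0.46 ± 0.30 that missed the threshold (adjusted p = 0.267 by limma). Of 22 receptors and coregulators tested, 2 rose and 7 fell, with a median of -0.22 (against 14.9% and 24.1% of all tested genes, and -0.12). Greb1 and the orphan receptor Nr2f2 (1.01) were the members that rose. Among those that fell were the coactivator Ncoa2 (-0.95), the glucocorticoid receptor Nr3c1 (-0.93) and the membrane-associated Pgrmc1 (-1.67). Ncor1, a corepressor, stood at 18.8 with vehicle and 11.6 and 10.1 with tamoxifen and did not pass. Leaving out either tamoxifen library reduced the members that fell from 7 to 4. Against estradiol, 12 of the 22 were lower with tamoxifen.

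On the progesterone and implantation list 0 of 24 genes rose and 14 fell, with a median of -0.63, and with either other scaling 1 rose. Hand2 and Hoxa11, which fell, are also on the stromal marker list, so these decreases are not all of epithelial genes. Klf9, a Kruppel-like factor that cooperates with Pgr, fell from 13.9 to 1.35 and 1.69, and Msx1, a homeobox factor needed for receptivity, from 100.5 in vehicle to 34.2 and 54.8. Hbegf, a ligand at the site of attachment, stood at 284 with vehicle, 79.4 and 139 with tamoxifen and 45.1 and 38.3 with estradiol, so tamoxifen lay between vehicle and estradiol. Ihh, the hedgehog ligand under progesterone control, stood at 6.39 with vehicle, 2.49 and 4.0 with tamoxifen and 26.1 and 17.9 with estradiol and did not pass against vehicle. The count that fell dropped to 8 with quantile normalization, to 8 without tamoxifen 1 and to 7 without either tamoxifen plus alpelisib library.

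Of the 15 tested genes of the insulin and IGF axis 8 fell and 0 rose, with a median of -0.88. Igf1r, the receptor of IGF1, stood at 6.41 with vehicle, 1.34 and 1.17 with tamoxifen and 3.89 and 5.53 with estradiol (log2 fold change -1.72 ± 0.22, adjusted p = 0.00192 by limma). Irs2, an adaptor below the insulin and IGF receptors, stood at 3.34 with vehicle, 0.227 and 0.16 with tamoxifen and 0.515 and 0.684 with estradiol. Both tamoxifen libraries were the lowest of the 5 for Igf1r and for Irs2. Igfbp3, a binding protein that carries IGFs, fell from 31.9 to 0.114 and 0.226, and Igfbp4 (-1.77) and Igfbp6 (-1.95) fell too. Insr, at 2.39 with vehicle and 2.18 and 2.19 with tamoxifen, and Igf1 itself, at 1.08 with vehicle and 1.28 and 0.998 with tamoxifen, differed little. Among 37 PI3K components 6 rose and 6 fell, with a median of -0.22 (against 14.9% and 24.1% of all tested genes, and -0.12). Pik3ca, the catalytic subunit that alpelisib inhibits, stood at 2.84 with vehicle, 2.74 and 2.31 with tamoxifen and 3.3 and 4.34 with estradiol, and its log2 fold change of -0.12 ± 0.19 missed the threshold (adjusted p = 0.638 by limma). Pik3r3, a regulatory subunit, rose from 2.0 to 8.92 and 7.82, and estradiol gave 10.5 and 13.6. Inpp5d (1.35), Mlst8 (1.12), Sgk3 (0.81) and Pik3cg (0.56), a phosphatase, an mTOR partner, a kinase and a leukocyte catalytic subunit, rose as well. The kinases Akt1 (-0.68), Akt2 (-0.65) and Sgk1 (-1.85) fell. The 6 that fell became 3 with median-of-ratios scaling and 3 without either tamoxifen library.

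A list of the FOXO genes and of transcripts that FOXO factors are known to control held more decreases than increases. Of 38 tested, 3 rose and 18 fell, with a median of -0.54. The list mixes the factors themselves, genes that they raise and genes that they lower, such as Ccnd1 and Ccnd2. Its split therefore gives no direction of FOXO activity. Foxo1 itself stood at 13 with vehicle, 6.03 and 5.74 with tamoxifen and 9.7 and 11.2 with estradiol (log2 fold change -1.03 ± 0.16, adjusted p = 0.00377 by limma), whereas Foxo3 rose from 2.8 to 5.97 and 8.63. Txnip, an inhibitor of thioredoxin, rose from 43.6 in vehicle to 105 and 139.5, and Tnfsf10, the death ligand TRAIL, from 4.41 in vehicle to 14.6 and 13.7. Pdk4, a kinase that blocks pyruvate dehydrogenase, fell to 0.094 and 0.256 from 2.7, and Cat, catalase, to 4.25 and 4.41 from 14.5. The EGF family list was small: of 10 tested, Lrig1 rose and Tgfa, Nrg4, Hbegf and Errfi1 fell. Errfi1, a feedback inhibitor of the EGF receptor, had the largest change of these, from 450.3 in vehicle to 57.7 and 87.5, and the receptors Egfr, Erbb2 and Erbb3 did not pass.

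Of 24 tested G1 cyclins, kinases and inhibitors 0 rose and 8 fell, a split that became 3 and 6 with median-of-ratios scaling and 1 and 8 with quantile normalization. Ccnd1, cyclin D1, which couples growth signals to the cell cycle, stood at 51.5 with vehicle, 9.61 and 7.75 with tamoxifen and 21.5 and 21.9 with estradiol (log2 fold change -2.45 ± 0.19, adjusted p = 0.000324 by limma). Ccnd2, cyclin D2, stood at 20.1 with vehicle, 0.92 and 0.405 with tamoxifen and 1.58 and 2.35 with estradiol. Myc, the growth factor-responsive transcription factor, stood at 45.2 with vehicle, 2.64 and 5.16 with tamoxifen and 15.7 and 11.5 with estradiol. For these 3 genes both tamoxifen libraries lay below vehicle and below both estradiol libraries.

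Of 40 tested genes of mitosis and replication 14 rose, 11 fell and 15 did not pass, with a median of 0.64. The split was 19 and 8 with median-of-ratios scaling and 18 and 8 with quantile normalization. Those that rose were Plk1, Ccnb2, Birc5, Ube2c, Ccnb1, Cdc20, Rrm1, Rrm2, Ccna2, Cdk1, Cenpe, Kif20a, Tpx2 and Kif11, which act at mitotic entry, on the spindle and kinetochore and in nucleotide supply. Those that fell were Mcm2, Mcm3, Mcm4, Mcm5, Mcm6, Uhrf1, Rfc4, Cdt1, Pola1, Prim1 and Gins2, which act in origin licensing, the replication fork and maintenance methylation. Plk1, a mitotic kinase, stood at 0.807 with vehicle, 3.82 and 5.63 with tamoxifen and 25.4 and 17.3 with estradiol, and Mcm3, a subunit of the replicative helicase, at 16.9 with vehicle, 5.54 and 4.8 with tamoxifen and 35.4 and 34 with estradiol. Mki67, the proliferation marker Ki-67, stood at 1.17 with vehicle, 3.65 and 2.85 with tamoxifen and 16.6 and 30.4 with estradiol, and its log2 fold change of 0.96 ± 0.34 missed the threshold (adjusted p = 0.067 by limma). All 40 members were lower with tamoxifen than with estradiol, with a median of -1.83 against -0.26 for all tested genes. That count was 38 with median-of-ratios scaling and 39 with quantile normalization, and the medians were -1.51 and -1.6. Without either tamoxifen plus alpelisib library, 8 of the 14 increases passed against vehicle. In bulk RNA, fewer dividing cells and less transcript per dividing cell cannot be told apart, and the same holds for each cell type below.

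**Figure D2:**
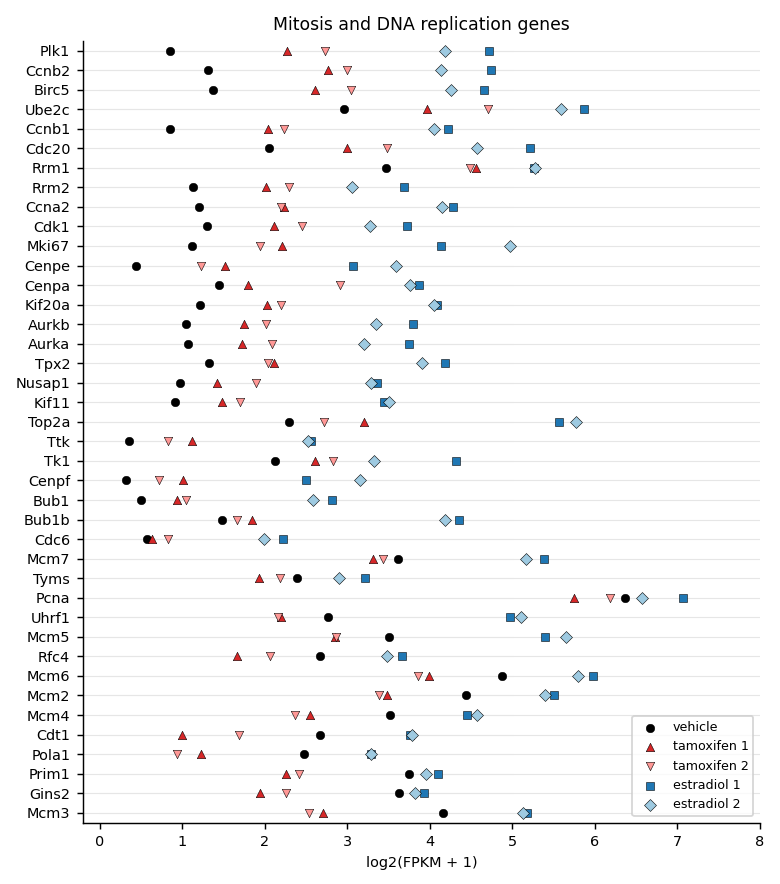
Level of 40 mitosis and DNA replication genes in each library, on log2(FPKM + 1), ordered by their log2 fold change against vehicle. Tamoxifen symbols (red) lie right of vehicle (black) in the upper rows and left of it in the lower rows, and the estradiol symbols (blue) lie to the right of both in every row.

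Of 43 genes of the secretory pathway and glycosylation 24 rose and 3 fell, with a median of 0.76. Golm1, a Golgi membrane protein, stood at 1.54 with vehicle, 64.2 and 57.1 with tamoxifen and 11.8 and 11.9 with estradiol (log2 fold change 4.60 ± 0.16, adjusted p = 3.88e-05 by limma). Sec11c, a subunit of signal peptidase, stood at 16.9 with vehicle, 125 and 149.5 with tamoxifen and 45.3 and 31.6 with estradiol. Fut2, a fucosyltransferase of the luminal surface, stood at 2.74 with vehicle, 51.8 and 47.4 with tamoxifen and 38.7 and 45 with estradiol, and there estradiol came close to tamoxifen. Galnt3, which starts mucin O-glycosylation, rose from 10.9 to 47.5 and 49.3. The translocon subunits Sec61b (1.46) and Sec61a1 (0.75) and the oligosaccharyltransferase subunits Rpn1 (0.99), Ddost (0.87) and Rpn2 (0.82) rose by smaller amounts. The coat proteins Sec23b and Sec24d and the factor Creb3l4 fell, Sec23b from 107 to 29.4 and 28.8.

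Among 29 chaperones and stress sensors of the endoplasmic reticulum 12 rose and 2 fell, with a median of 0.65. Sdf2l1, a chaperone partner, rose from 11 to 67.3 and 66.7, Manf from 38.9 in vehicle to 90.1 and 130.5, and Calr, calreticulin, from 247 in vehicle to 557 and 690.2. The sensors and switches of the unfolded protein response did not follow: Atf6 stood at 3.92 with vehicle and 4.16 and 3.16 with tamoxifen, Ern1 at 7.07 with vehicle and 6.78 and 7.61 with tamoxifen and Xbp1 at 63.9 with vehicle and 45 and 53.9 with tamoxifen, and none of these passed. Chac1 and Asns, targets of Atf4, fell, with log2 fold changes of -1.43 and -0.80. Without either tamoxifen plus alpelisib library 5 of the 12 increases passed. Of 8 mucins and sialomucins 5 rose and 3 fell: the membrane mucins Muc20 (3.48), Muc1 (3.14), Muc4 (3.14) and Muc13 (2.36) and the mucin-like Cd24a (1.33) rose, whereas the oviduct glycoprotein Ovgp1 (-1.44) and the sialomucins Podxl (-1.56) and Emcn (-1.02) fell.

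Channels and transporters included large changes both ways, 12 of 29 higher and 8 lower. Clca1, a secreted regulator of chloride current, stood at 66.7 with vehicle, 3364 and 2583 with tamoxifen and 143 and 144 with estradiol (log2 fold change 5.44 ± 0.28, adjusted p = 9.81e-05 by limma). Otop1, a proton channel, stood at 0.511 with vehicle, 41.4 and 48.2 with tamoxifen and 0.018 and 0 with estradiol. Cftr, the chloride channel of uterine fluid, stood at 2.06 with vehicle, 13 and 12.7 with tamoxifen and 9.99 and 11.4 with estradiol. Clca1 and Otop1 were far higher with tamoxifen than with estradiol, while for Cftr the estradiol values lay close to those of tamoxifen. Scnn1a, the alpha subunit of the epithelial sodium channel, fell from 15.5 to 0.603 and 0.674, and the sodium pump subunit Atp1b1 from 64.2 in vehicle to 7.71 and 7.92.

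Enzymes of several metabolic routes were among the strongest increases. Aoc1, diamine oxidase, which degrades histamine and putrescine, stood at 2.01 with vehicle, 613 and 644 with tamoxifen and 16.7 and 17.3 with estradiol (log2 fold change 7.71 ± 0.18, adjusted p = 1.89e-05 by limma). Arg1, arginase, stood at 4.0 with vehicle, 566 and 715 with tamoxifen and 14.7 and 9.38 with estradiol. Ass1, which makes argininosuccinate, rose from 7.47 to 75.1 and 84.8. Both Odc1, ornithine decarboxylase of polyamine synthesis, at 65.3 with vehicle and 25.1 and 32 with tamoxifen and the inhibitor-binding Azin1 at 33.4 with vehicle and 13 and 13.2 with tamoxifen fell. Of 21 tested genes of arginine and polyamine metabolism 5 rose and 7 fell, against 14.9% and 24.1% of all tested genes. Amd1 rose and Amd2 fell, but their transcripts share 86.1% of their windows of 50 bases, so how reads were divided between them is uncertain and neither is described further. Uox, urate oxidase, stood at 0.911 with vehicle, 195 and 209 with tamoxifen and 37.3 and 33.6 with estradiol, and Cyp21a1, steroid 21-hydroxylase, at 0.0839 with vehicle, 117 and 128 with tamoxifen and 11.7 and 11.3 with estradiol. Both were also above vehicle with estradiol, at lower levels. Fabp5, a fatty acid-binding protein, stood at 3.23 with vehicle, 387 and 451 with tamoxifen and 8.07 and 2.16 with estradiol, and for Arg1 and Fabp5 the estradiol values lay much closer to vehicle than to tamoxifen. Apobec2, of the cytidine deaminase family, rose from 0.442 to 159.7 and 189.

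The lactate dehydrogenase isoforms differed in direction. Ldhb, the heart-type lactate dehydrogenase, stood at 110.5 with vehicle, 6.72 and 7.69 with tamoxifen and 384 and 257 with estradiol (log2 fold change -3.77 ± 0.26, adjusted p = 0.000229 by limma). Ldha, the muscle type, stood at 169 with vehicle, 468 and 462 with tamoxifen and 508 and 391 with estradiol. Hk1, hexokinase 1, fell to 1.92 and 1.59 from 33.3, while Hk2 stood at 21.6 with vehicle and 24.2 and 19.95 with tamoxifen and did not pass. Tamoxifen thus lay below vehicle for Ldhb and Hk1 and above it for Ldha. The shared enzymes Pgam1 (1.14), Eno1 (1.11), Pgk1 (0.88), Aldoa (0.85) and Tpi1 (0.85) and the lactate carriers Slc16a3 (2.36) and Slc16a1 (1.55) rose. The glucose transporter Slc2a3 fell from 5.37 to 0.162 and 0.147, and Slc2a4, the insulin-responsive carrier, rose from 0.162 in vehicle to 3.26 and 5.73. In all 13 of 30 rose and 10 fell. Of 35 respiratory chain genes 2 rose, Cycs (1.10) and Sdhb (0.69), and 0 fell. Sterol synthesis included 9 increases among 24, with Mvd (1.86), Cyp51 (1.61) and Fdps (1.54) the largest, and 1 decrease. Among 35 genes of fatty acid metabolism 5 rose and 8 fell (9 and 7 with median-of-ratios scaling), close to the 14.9% and 24.1% of all tested genes. The desaturases Fads1 (-1.97), Fads2 (-1.07) and Scd1 (-1.15) were among those that fell.

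Of 21 tested retinoid genes 6 rose, 5 fell and 10 did not pass, where 14.9% of all tested genes rose and 24.1% fell. Crabp2, which delivers retinoic acid to its nuclear receptors, stood at 12.5 with vehicle, 85.7 and 123 with tamoxifen and 16 and 10.2 with estradiol (log2 fold change 2.95 ± 0.31, adjusted p = 0.00102 by limma). Rbp2, a retinol-binding protein, was listed at 0 in vehicle and stood at 11.8 and 13.4 with tamoxifen and 0.369 and 0 with estradiol. Aldh1a1, an enzyme that makes retinoic acid, stood at 115 with vehicle, 9.21 and 10.5 with tamoxifen and 53.8 and 45.1 with estradiol. Stra6, the retinol importer, stood at 5.57 with vehicle, 0.319 and 0.368 with tamoxifen and 66.2 and 60.8 with estradiol. Crabp2, Rbp2 and the reductase Dhrs3 rose with tamoxifen, whereas Stra6 and Aldh1a1 fell. Among 33 steroid and xenobiotic enzymes 8 rose and 15 fell, with a median of -0.49. Hsd17b2, which inactivates estradiol to estrone, rose from 0.691 to 22.8 and 35.3, with 0.456 and 0.807 under estradiol. The sulfotransferases Sult1d1 (-3.46) and Sult1a1 (-2.59) and the glutathione transferases Gstm1 (-2.74), Gstm2 (-2.62), Gsta4 (-1.72) and Gstp1 (-1.12) fell. Of 22 genes for prostaglandins, lipoxygenases and phospholipases 2 rose and 8 fell. Pla2g10, a secreted phospholipase A2, fell from 52.7 to 0.147 and 0.0834, and Ptgs1, cyclooxygenase 1, from 24.8 in vehicle to 2.22 and 2.53. Alox15, a lipoxygenase, stood at 14.1 with vehicle, 3.24 and 5.07 with tamoxifen and 132 and 123 with estradiol, which places estradiol far above both other groups.

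Matrix genes fell more often than they rose. Tgfbi, a matrix protein induced by TGF beta, had the largest decrease of any ranked gene and stood at 519.9 with vehicle, 5.1 and 5.35 with tamoxifen and 32.9 and 37.3 with estradiol (log2 fold change -6.39 ± 0.16, adjusted p = 1.89e-05 by limma). Ctgf, connective tissue growth factor, stood at 259 with vehicle, 3.66 and 7.58 with tamoxifen and 13.8 and 9.71 with estradiol. Timp3, an inhibitor of metalloproteinases, stood at 127 with vehicle, 1.8 and 1.81 with tamoxifen and 5.11 and 5.01 with estradiol. For each of these the estradiol values lay between vehicle and tamoxifen. Thbs1, thrombospondin 1, and Cyr61, a relative of Ctgf, fell as well, with log2 fold changes of -3.59 and -2.69. Of 38 matrix genes 7 rose and 18 fell (10 and 17 with median-of-ratios scaling, 9 and 14 with quantile normalization), and of 17 metalloproteinases and inhibitors 2 rose and 9 fell. Mmp7, matrilysin, an epithelial protease, went against its list, at 0.881 with vehicle, 54.9 and 78.1 with tamoxifen and 64.8 and 39.1 with estradiol. Postn (2.46), Col17a1 (1.79) and Lama3 (1.30), periostin, a hemidesmosome collagen and a laminin chain, rose.

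Tight junction genes fell more often than they rose, 16 against 6 of 37. Cldn1, claudin 1, stood at 61.4 with vehicle, 0.587 and 0.75 with tamoxifen and 24.1 and 24.6 with estradiol (log2 fold change -5.23 ± 0.16, adjusted p = 2.84e-05 by limma). Cldn10 stood at 184 with vehicle, 19.9 and 24.9 with tamoxifen and 33.2 and 26.2 with estradiol, and Cldn4 at 1442 with vehicle, 213 and 479 with tamoxifen and 170.5 and 95.2 with estradiol. For Cldn10 the estradiol values were close to those of tamoxifen, whereas for Cldn1 they were far above. Ocln, occludin, and Cdh1, E-cadherin, fell, with log2 fold changes of -2.17 and -1.08. Tjp3, a scaffold of the junction, rose from 17.1 to 75.2 and 88.5. Desmosome and squamous genes held 10 increases and 4 decreases among 26, with 6 increases without tamoxifen 2. Dsc2, desmocollin 2, rose from 4.32 to 63 and 60.5. Of 17 tested squamous and basal markers 9 rose and 3 fell, against 14.9% and 24.1% of all tested genes. Their median was 0.64. Among keratins of basal and stratified epithelium, Krt5 (4.06), Krt6b (3.90), Krt6a (3.80), Krt13 (3.03), Krt15 (2.78) and Krt14 (1.62) rose, while Krt17 fell from 277 in vehicle to 4.06 and 7.13. Krt14 was higher still with estradiol, at 61.4 and 60.9. The defining squamous factor Trp63 was low, at 0.969 with vehicle and 1.38 and 1.66 with tamoxifen, and did not pass, and Krtdap was listed at 0 in all of these libraries.

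Most Wnt genes that passed were lower. Of 33 tested 4 rose and 17 fell, with a median of -0.62. Wnt11 fell from 25.1 to 0.0198 and 0.112, and Lgr5, a receptor of R-spondins that marks gland-forming cells, stood at 5.7 with vehicle, 0 and 0.0122 with tamoxifen and 1.9 and 1.98 with estradiol. The feedback targets Notum (-2.07), Znrf3 (-1.58) and Nkd1 (-1.27) fell. Wnt5b rose from 1.21 to 11.2 and 11.5, and Tcf7, a nuclear effector, from 5.21 in vehicle to 23.6 and 21.9. In the TGF beta, BMP and activin list 2 of 32 rose, Ltbp1 (2.30) and Ltbp2 (0.89), and 13 fell. Gdf15, a stress-induced member of that family, stood at 1237 with vehicle, 32.9 and 111 with tamoxifen and 57.4 and 28.5 with estradiol, and Smad3, a signal transducer, at 10.01 with vehicle, 2.59 and 1.84 with tamoxifen and 7.86 and 9.57 with estradiol. Of 30 uterine transcription factors 7 rose and 9 fell, against 14.9% and 24.1% of all tested genes. The epithelial factors Ovol1 (2.09), Elf3 (1.17) and Grhl3 (1.20) rose, and Klf5 (-1.83) and Sox9 (-1.18) fell. Sox17 and Pax8, which mark the Mullerian epithelium, did not pass.

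Interferon-stimulated genes rose together. Of 36 tested 26 rose and 1 fell, with a median log2 fold change of 1.22, and with either other scaling 29 rose and 0 fell. Oasl1, of the oligoadenylate synthetase family, stood at 1.42 with vehicle, 32.1 and 49.4 with tamoxifen and 11.4 and 6.17 with estradiol (log2 fold change 4.08 ± 0.37, adjusted p = 0.000594 by limma). Irf7, which amplifies the interferon response, stood at 1.63 with vehicle, 29.9 and 41 with tamoxifen and 31.7 and 20.2 with estradiol. Isg15, a ubiquitin-like modifier, stood at 3.31 with vehicle, 20.1 and 30.5 with tamoxifen and 40.7 and 42.3 with estradiol. All 3 were above vehicle in both tamoxifen libraries, and the estradiol values were also above vehicle. Ifnar2, a subunit of the interferon receptor, was the member that fell. Against estradiol, 2 of the 36 were higher with tamoxifen and 16 lower, a split that became 6 and 8 with median-of-ratios scaling. The window of 250 bases before the Isg15 start (GRCm38.p6, chr4:156200819-156201068, minus strand) is shown because it holds the interferon-stimulated response element, searched as GAAANNGAAA on both strands. Capitals mark 3 matches that overlap each other.
Isg15: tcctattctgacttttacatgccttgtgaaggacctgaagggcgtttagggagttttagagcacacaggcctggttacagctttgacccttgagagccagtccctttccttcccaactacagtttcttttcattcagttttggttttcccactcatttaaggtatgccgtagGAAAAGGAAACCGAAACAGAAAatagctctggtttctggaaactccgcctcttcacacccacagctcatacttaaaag
Those letters were in 2.98% of all 32851 windows and, counted by gene, were found for 3.21% of the 9660 tested genes that have a window and for 11 of 26 on the list (42.3%). The list was drawn from known interferon targets, for which that element is a textbook feature.

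Of 23 antigen presentation genes 5 rose, 6 fell and 12 did not pass, where 14.9% of all tested genes rose and 24.1% fell. Ctss, cathepsin S, rose from 2.95 to 33.9 and 31.8, and Psme2, a proteasome activator, from 45.7 in vehicle to 173 and 193. H2-Ab1 and H2-Eb1, chains of class II molecules, fell, with log2 fold changes of -1.51 and -1.53. Cd74, their invariant chain, stood at 18.7 with vehicle, 9.32 and 11.4 with tamoxifen and 209 and 126 with estradiol and did not pass against vehicle. Against estradiol 15 of the 23 were lower and 0 higher, with a median of -1.26. The increases against vehicle numbered 10 with median-of-ratios scaling.

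Several interleukin 1 genes rose. Il1r2, the decoy receptor, stood at 0.26 with vehicle, 87.8 and 94.9 with tamoxifen and 1.67 and 0.57 with estradiol, Il1a, a ligand, at 3.17 with vehicle, 117 and 141 with tamoxifen and 17.4 and 14.4 with estradiol, and Il1r1, the signaling receptor, at 4.71 with vehicle, 40.7 and 40.1 with tamoxifen and 14.6 and 15.3 with estradiol. Il1b, the other ligand, stood at 0.517 with vehicle and 0.227 and 0.303 with tamoxifen and did not pass. Tnf rose from 0.603 to 10.7 and 22.3, and Cxcl17, a mucosal chemokine, from 25.6 in vehicle to 143 and 249. Ccl2 fell from 15.9 to 0.799 and 0.613 and Csf3, a neutrophil growth factor, from 119 in vehicle to 15.9 and 22.7. Il17rb, the receptor of interleukin 25, fell from 121 in vehicle to 0.359 and 1.06, and estradiol gave 31 and 27.8. In all 8 of 35 rose and 10 fell, against 14.9% and 24.1% of all tested genes.

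Immediate early and stress genes were mostly lower where they passed. Of 36 AP-1 and immediate early genes 3 rose and 15 fell, with a median of -0.66. Nr4a1, an orphan receptor, stood at 584 with vehicle, 37.8 and 93.1 with tamoxifen and 94.2 and 66.2 with estradiol, Dusp5, a phosphatase of ERK, at 417 with vehicle, 43.6 and 82.6 with tamoxifen and 37.9 and 29.2 with estradiol, and Atf3 at 836 with vehicle, 139 and 269 with tamoxifen and 226 and 119.6 with estradiol. Fos stood at 592 with vehicle, 305 and 626 with tamoxifen and 340.1 and 272 with estradiol and Jun at 509 with vehicle, 286 and 559 with tamoxifen and 345 and 259 with estradiol, and neither passed. The 2 tamoxifen libraries lay on both sides of vehicle for Fos and Jun. The heat shock genes Hspa1a and Hspa1b rose, and as their transcripts share 58.8% of their windows their levels were not separated. Metallothioneins, which bind zinc and copper, had some of the largest decreases: Mt1 stood at 2828 with vehicle, 122 and 661 with tamoxifen and 304 and 113 with estradiol, Mt2 at 1693 with vehicle, 34.2 and 146 with tamoxifen and 173 and 91.8 with estradiol and Mt3, a form best known from brain, at 92.6 with vehicle, 0 and 0.412 with tamoxifen and 4.84 and 3.55 with estradiol. Mt1 and Mt2 also differed several-fold between the 2 tamoxifen libraries. The log2 fold change of Mt2 was -4.56 ± 0.81 (adjusted p = 0.00662 by limma). In the Ly6 family 5 of 16 rose and 6 fell. Lypd8, which keeps bacteria off the gut epithelium, stood at 0.0605 with vehicle, 82.3 and 88.9 with tamoxifen and 7.09 and 6.26 with estradiol, and Plaur, the urokinase receptor, at 232 with vehicle, 14.9 and 30.3 with tamoxifen and 11 and 5.19 with estradiol. Itgam, an integrin chain of myeloid cells, Penk, proenkephalin, and Kap, an androgen-regulated kidney protein, were also among the highest, at 0.406 with vehicle and 51.5 and 56 with tamoxifen, at 4.51 with vehicle and 236 and 253 with tamoxifen and, for Kap, listed at 0 in vehicle and at 31.5 and 55.2 with tamoxifen.

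**Figure D3:**
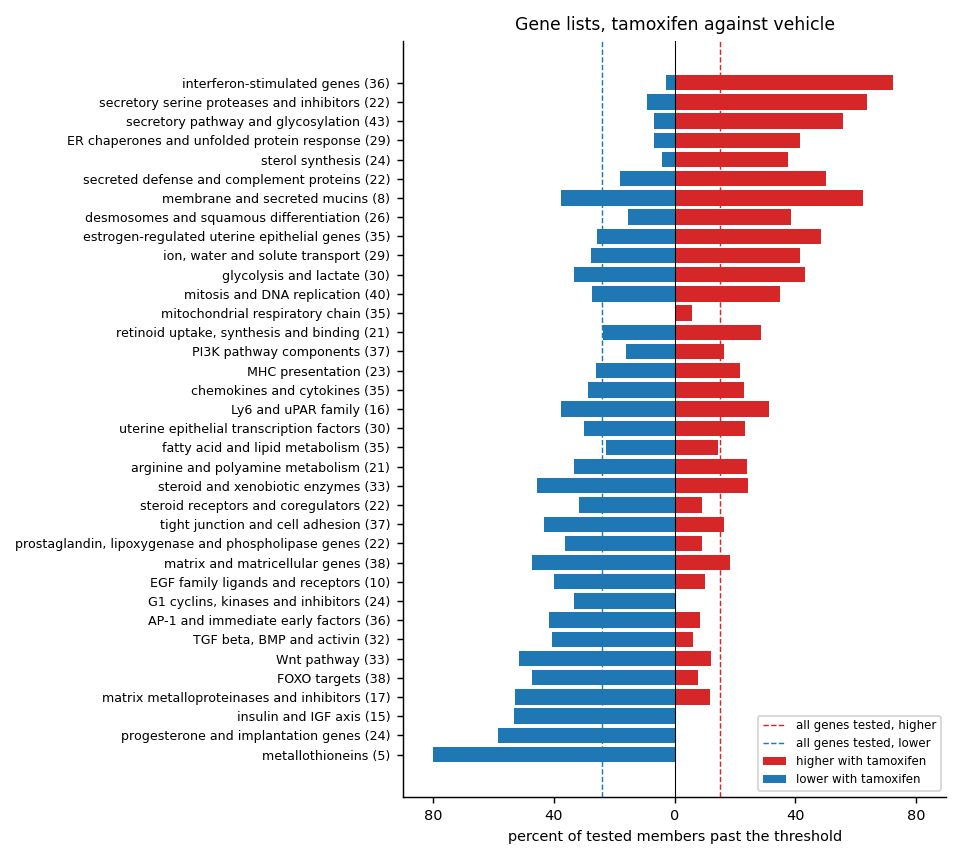
Percent of the tested members of each of 36 gene lists that were higher (red, right) or lower (blue, left) with tamoxifen than in vehicle, with the number tested in brackets and dashed lines at 14.9% and 24.1% for all tested genes. The interferon-stimulated list has the largest share of higher members, 26 of 36, and the metallothionein list, which includes zinc transporters, the largest share of lower ones, 4 of 5. List members were chosen with earlier results of these data known.

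Markers of other cell types differed between tamoxifen and vehicle as well. Summed over all 18 stromal markers in the table, tested or not, FPKM was 321.8 with vehicle, 145.3 and 136.3 with tamoxifen, and 260.6 and 253.3 with estradiol. Of the 17 tested, 15 fell and 2 rose, Postn and Fbln1. Dcn, decorin, went from 144 to 31.7 and 30.9, and Vim, vimentin, from 51.7 in vehicle to 6.09 and 8.11. Summed in the same way, the 10 smooth muscle markers gave 79.2 in vehicle and 27.7 and 26.7 with tamoxifen, with 5 of the 7 tested lower, and the 13 endothelial markers 28.0 in vehicle and 5.53 and 5.18 with tamoxifen, with 7 of the 11 tested lower. Matrix genes such as Col1a1, Col3a1 and Col6a1, the metalloproteinase Mmp2 and several Wnt inhibitors are also made by stroma. Hand2 and Hoxa11 of the progesterone and implantation list are themselves on the stromal list. The part of stromal RNA in the decrease of all these genes was not tested.

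Blood and immune markers gave a mixed picture. Globin and erythroid genes rose, 5 of 5, Hbb-b1 from 13.8 in vehicle to 513 and 416, and their part in other results was not tested. The split between Hba-a1 and Hba-a2 is uncertain, as their transcripts share 67.5% of their windows. The neutrophil list summed to 313 in vehicle and 7873 and 10797 with tamoxifen, nearly all of it Ltf and Lcn2, which the epithelium also makes, while S100a8 was listed at 0 in vehicle and in both tamoxifen libraries. Of 11 macrophage markers 3 rose, Itgam (5.28) and Cd68 (0.93) among them, and 1 fell, Lyz2. The defining Adgre1 stood at 0.278 with vehicle and 0.151 and 0.183 with tamoxifen and Csf1r at 0.523 with vehicle and 0.429 and 0.181 with tamoxifen, so Itgam was high where these were close to 0. Of the lymphocyte markers 1 of 16 in the table was tested, and it did not pass. The ciliated list had 3 tested members of 17. General epithelial markers summed to 8068 in vehicle and 5804 and 7689 with tamoxifen, with 2 of 16 higher, Krt7 (2.30) and Elf3 (1.17), and 4 lower, Cdh1 (-1.08), Msx1 (-1.19), Krt18 (-1.83) and Cldn4 (-2.17). Of 8 glandular markers 1 rose, Prss29, and 2 fell, and Foxa2, which defines glands, stood at 0.334 with vehicle and 1.38 and 0.998 with tamoxifen.

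**Figure D4:**
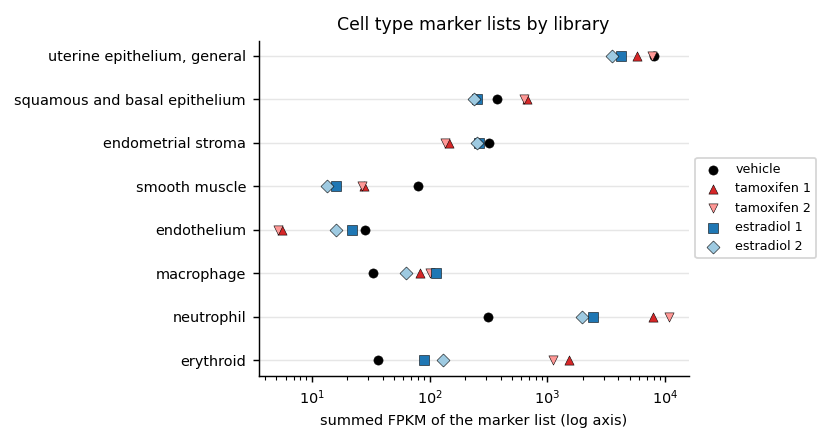
Summed FPKM of all members in the table of 8 marker lists in each library, on a log axis, with vehicle in black, tamoxifen 1 and 2 in red and estradiol 1 and 2 in blue. Tamoxifen lies below vehicle for general epithelium, stroma, smooth muscle and endothelium. It lies above vehicle for the squamous and basal, macrophage, neutrophil and erythroid lists.

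The 2 tamoxifen libraries differed most in short and noncoding transcripts. Snora81, a small nucleolar RNA, was listed at 0 in vehicle and tamoxifen 1 and stood at 319 in tamoxifen 2. Transcripts shorter than 1000 bases, 712 genes, had a median log2 difference of -0.47 between tamoxifen 1 and tamoxifen 2, and those of 4000 bases or more, 4431 genes, of 0.01. Against vehicle the short group had a median of -0.08 in tamoxifen 1 and 0.30 in tamoxifen 2. Levels of short genes, such as Sec61b, Ndufa4, Klk1 and Klk1b27, are therefore to be read with this difference. Whether transcript length explains the difference of any single gene was not tested. Sprr2f, a short cornified envelope gene, stood at 101 with vehicle and 1541 and 3397 with tamoxifen and Sprr2e at 1.65 with vehicle and 4.07 and 18.5 with tamoxifen. Sprr2f lay above vehicle in both libraries, and Sprr2e did not pass.

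**Figure D5:**
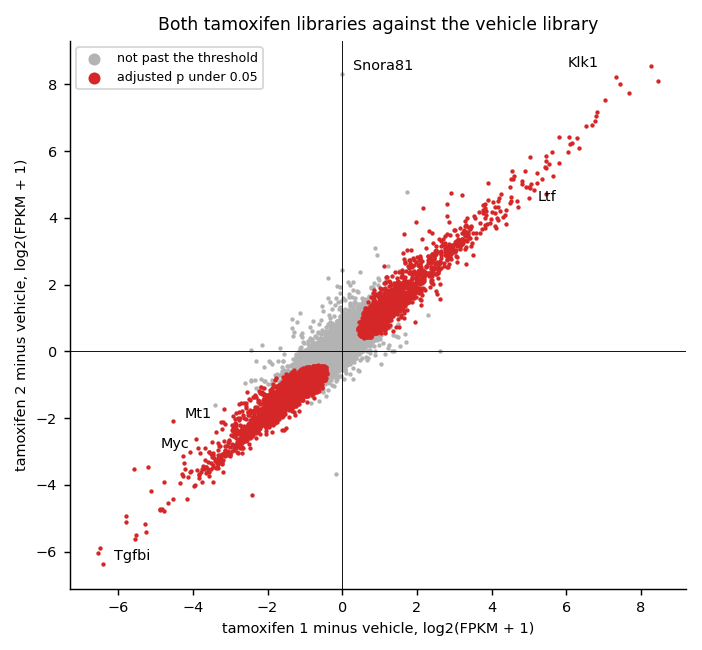
Each of 12314 tested genes by its log2(FPKM + 1) difference from vehicle in tamoxifen 1 (horizontal) and tamoxifen 2 (vertical), with genes past the threshold in red. Most points lie along the diagonal from Tgfbi at the lower left to Klk1 at the upper right. Both axes share the vehicle library, which places points along that diagonal by itself, and Snora81 stands at the upper edge away from it.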

How the data were processed

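Total RNA of endometrial epithelial cells was sequenced with TruSeq libraries on the HiSeq 2000, per the labels. The authors used CASAVA, Bowtie and Cufflinks, per the submitters' processing notes, without versions, and deposited 1 table of FPKM values with gene symbols. The only build named there is hg19, although the symbols are those of the mouse, and no mouse build is given there. Of 24353 symbols 24249 matched mouse annotation, 552 of them as older names, and 27 names had become dates.

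Here log2(FPKM + 1) was fitted with limma-trend (limma 3.58.1, R 4.3.3) as 4 group means over 7 libraries, with 3 residual degrees of freedom and no added scaling, and p values were adjusted by Benjamini-Hochberg over the 12314 genes that reached an FPKM of 1 in any library. Alternatives were other scalings, pseudocounts and filters, robust empirical Bayes, a replicate block, only the compared groups in the fit, and each replicate left out. The method was tested on simulated data in which vehicle had the spread of the other groups, so that assumption itself was not tested. Named genes are the 30 highest and 30 lowest against vehicle, the 10 highest and lowest against estradiol, the 15 most abundant with tamoxifen and the 10 that differ most between its libraries (mean FPKM of at least 5), members of 36 gene lists and 15 marker lists, and a set of single genes. Members and lists were chosen with earlier results of these data known, so counts by list describe the members and do not test the families. Promoter windows come from RefSeq (GRCm38.p6), and transcript windows and lengths from GENCODE transcripts, whose build may differ from the authors'. Tables were handled with Python 3.11.15, pandas 2.3.3 and numpy 2.4.6, and drawn with matplotlib 3.10.9.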

Additional observations from a re-analysis of the deposited data

How the results depend on the processing

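The test of tamoxifen against vehicle gave 4807 genes, and 4266 to 4778 of these were called again under other scalings, a pseudocount of 0.1 or robust empirical Bayes. Fewer were called again without a filter on low values (3995), with a replicate block (3960) and with only the compared groups in the fit (3502). The last of these fits called 3613 genes. Leaving out 1 library at a time gave 3466 to 5538 genes. A 2-fold minimum left 2746 (1063 higher, 1683 lower). With a pseudocount of 0.1, 1418 genes (587 higher, 831 lower) instead of 642 were at least 4-fold from vehicle in both tamoxifen libraries, and 705 instead of 232 lay over 2-fold apart between them. Against estradiol, median-of-ratios scaling gave 2950 higher and 2684 lower, quantile normalization 2523 and 2756, and a 2-fold minimum 2453 (779 and 1674). Leaving out 1 library gave 917 higher genes, without tamoxifen 2, to 1905, without estradiol 1. The cause of these shifts was not tested. Estradiol against vehicle gave 4366 calls, 1597 (971 and 626) with only those groups in the fit, 2271 (1351 and 920) at 2-fold or more, and 2808 to 5063 without 1 library (1792 to 2993 higher, 1016 to 2070 lower).

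The difference between mouse 1 and mouse 2 had no common direction across the groups. Across 12314 genes, which are not independent replicates, it correlated at -0.403 between tamoxifen and estradiol and 0.273 between tamoxifen and tamoxifen plus alpelisib. Between estradiol and tamoxifen plus alpelisib the correlation was -0.182. Whether libraries were paired or shared a batch cannot be told from these values. With the replicate number as a block 3996 genes passed against vehicle (1515 higher, 2481 lower), 5089 against estradiol (1229 and 3860) and 3325 for estradiol against vehicle. With the numbers crossed in estradiol, chosen after seeing the data, 6841 passed against estradiol (1981 and 4860).

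Of 289 described genes, 255 of them called, 0 changed sign in 14 alternatives and 48 lost their call in at least 1. Leaving out 1 tamoxifen library cost 27 (tamoxifen 1) or 26 calls, and leaving out 1 tamoxifen plus alpelisib library 35. Those lost at least once included Mt1, Akt1, Foxo3, Hbegf and Cldn4, and none whose adjusted p is printed. At 16.79 to 18.84 M fragments, values under an FPKM of 1 rest on few fragments, and a call that misses the threshold there does not show that levels were alike.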

Other observations

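Several of the highest and lowest genes were not described above. Car12, a carbonic anhydrase, stood at 3.0 with vehicle, 261 and 251 with tamoxifen and 15.8 and 13.6 with estradiol, and Ada, adenosine deaminase, at 0.615 with vehicle, 109 and 118 with tamoxifen and 4.61 and 3.82 with estradiol. Pglyrp1, a peptidoglycan recognition protein, stood at 9.4 with vehicle, 583 and 887 with tamoxifen and 214 and 155 with estradiol, and Il1f6, the gene of interleukin 36 alpha, at 1.23 with vehicle, 96.6 and 114 with tamoxifen and 35.3 and 31.8 with estradiol. All 4 lay far above vehicle in both tamoxifen libraries and at intermediate levels with estradiol. Hgfac, the protease that activates hepatocyte growth factor, rose from 1.31 to 99.6 and 132.

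At the lower end, Plat, tissue plasminogen activator, stood at 477 with vehicle, 23.4 and 36.5 with tamoxifen and 305 and 233 with estradiol, and Ifitm1, an interferon-induced membrane protein outside the interferon list, at 384 with vehicle, 13.1 and 24.4 with tamoxifen and 548 and 311 with estradiol. For Ifitm1 the estradiol values lay on both sides of vehicle, and for Plat both lay below it. Tamoxifen was far below estradiol for both genes. Npl, a lyase of sialic acid, was listed at 0 in both tamoxifen libraries, against 26.4 in vehicle and 18.9 and 9.59 with estradiol. Hspb8, a small heat shock protein, fell from 86.2 to 2.04 and 2.29, and Dbp, a transcription factor of the circadian output, from 21.5 to 0.21 and 0.967.

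Transcripts typical of liver differed within each treated group. The summed FPKM of 6 such genes, chosen after their values were seen, was 29.9 with vehicle, 35.3 and 147 in tamoxifen 1 and 2, and 149.7 and 0.612 in estradiol 1 and 2. Alb, albumin, alone stood at 12.9 with vehicle, 14.4 and 58.2 with tamoxifen, and 56.3 and 0.0285 with estradiol.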
